A study of Rattus norvegicus with 5 samples.

Results

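Negative control viruses are meant to carry everything but the effect under study, and a study of gain and loss of Tmub1 needs one for each direction. The comparison described here sets these viruses against each other: the array of cells given the negative control of the knockdown virus against the array of cells given the negative control of the overexpression virus. Both arrays come from BRL-3A, an adherent line from Buffalo rat liver. Per the labels, the other groups of the series were cells with a lentivirus that overexpresses Tmub1, cells with one that knocks it down, and normal cells without a virus, RNA was taken 48 h after transduction, and each of the 5 groups has 1 array. The sources used here do not give what the control viruses carry in place of the Tmub1 sequences, the virus dose, or whether transduced cells were selected.

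The genes compared were taken by brightness alone. Of 30366 non-control probes, 22485 were flagged by the scanner software as well above background on 1 or both control arrays, and of these 13931 could be named through RefSeq and 8406 could not. The remaining 148 had no value on one of the arrays once poor spots were left out. The named probes fell on 11945 of the 15167 genes named on the array, and for 11655 the difference could be read. The level used throughout is the log2 of the processed signal minus the array's 75th percentile, so a level of 0 lies at that percentile. A difference is the level in the knockdown negative control minus that in the overexpression negative control, called the knockdown control and the overexpression control from here on. With 1 array per group there are no replicates and no test: an interval given beside a difference is a 95% interval from the scanner software's spot error, which leaves out all variation between cultures.

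Lentiviral transduction brings foreign RNA and DNA into a cell. Mammalian cells carry sensors for such nucleic acids, and their signal leads to type I interferon, which acts through transcription factors such as IRF9 on a shared element in the promoters of many antiviral genes. Cell cycle genes are controlled in another way: a repressor complex that p21 can engage acts on the promoters of genes of mitosis, many of which hold a short element called CHR. Tmub1 itself sits in membranes and carries a domain that resembles ubiquitin.

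The Tmub1 probe gave a level of 0.37 in the overexpression control and 0.45 in the knockdown control, against 0.44 with the overexpression virus, -1.42 with the knockdown virus and 0.08 in normal cells. The controls thus differed by 0.09 on the log2 scale, with an interval of -0.31 to 0.49, while the knockdown array was the low one of the 5. The overexpression array lay within the range of the controls.

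The overexpression control was the dimmest array of the series, with a median processed signal of 116.4 against 159.7 in the knockdown control and 143.9 to 356.2 on the other 3 arrays. It had 66.9% of probes well above background, against 72.6% in the knockdown control and 72.2% to 86.5% elsewhere. The median coefficient of variation of replicate spots was 6.12% and 6.09% on the control arrays, and no spot was saturated. Over the 19481 probes well above background on all 5 arrays, levels of the controls correlated with r = 0.968, a description across probes of shared cells and platform. By the same measure each control was closer to the overexpression array, with r = 0.987 for the overexpression control and 0.982 for the knockdown control. All 4 transduced arrays share 1 scan; normal cells were scanned separately, so scan and group cannot be told apart wherever normal cells are set beside the others.

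At 2.5-fold, the threshold that the series' design states, 614 genes were higher in the knockdown control and 406 were lower. These make up 5.27% and 3.48% of the 11655 genes read, and together 8.75%. Over all 21667 probes that could be read, named or not, 8.88% differed that far. The middle of the distribution was at 0.00, with quartiles of -0.45 and 0.46. At 4-fold there were 167 genes higher and 105 lower, and at 8-fold 26 and 13. Of the 1020 genes past 2.5-fold, 985 had a 95% scanner interval that left out 0; the median scanner error was 0.21 on the log2 scale. For 159 of them, 108 higher and 51 lower, the dimmer value was not well above background. Such a difference is given as "at least N-fold": the dimmer value is then the higher of the probe's own signal and the lowest signal well above background on that array.

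The split of higher against lower genes depends on the centring. Subtracting each array's median in place of its 75th percentile gave a median of -0.20 over all genes and turned 60.2% higher calls into 41.3%, with 439 genes higher and 624 lower. Differences also ran with brightness. With the genes split into 5 equal groups from dimmest to brightest, the median difference was 0.10, 0.15, 0.13, -0.06 and -0.31, and the higher calls numbered 180, 204, 132, 77 and 21 against 97, 69, 72, 88 and 80 lower calls. Higher calls thus sat mostly among dimmer genes, while the lower calls were spread evenly. The part of the dimmer array in this slope was not tested.

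**Figure D1:**
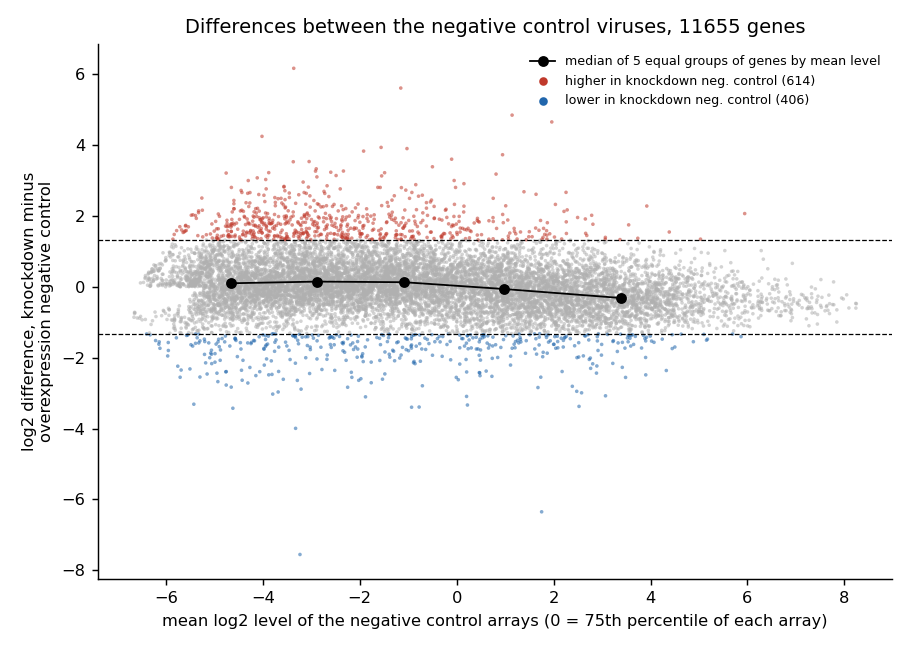
Each point is 1 of 11655 genes, placed by its mean log2 level on the control arrays and by its log2 difference between them; dashed lines mark 2.5-fold and black points the medians of 5 equal groups of genes by level. The 614 higher genes (red) lie mostly on the dim side, and the median falls to -0.31 in the brightest group.

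The clearest group on the higher side was the interferon-induced genes. Of 50 measured members, 45 were higher in the knockdown control, 11 of them past 2.5-fold, and none was past it the other way. That is 22% of the list against 5.27% of all genes, and its median difference was 0.82 against 0.00. The count lay between 7, with normexp background correction, and 14 over 13 alternatives at 2.5-fold, and the median between 0.60 and 0.89 over all settings. Isg15, a ubiquitin-like protein that is attached to other proteins during the antiviral response, read -0.49 in the overexpression control, 2.00 in the knockdown control, 3.39 with the overexpression virus, -1.64 with the knockdown virus and -4.39 in normal cells. It was therefore 5.64-fold higher in one control than in the other, with an interval of 2.10 to 2.90 on the log2 scale, and lowest in normal cells. Usp18, the protease that removes Isg15 from its targets, read -1.73, 0.49, 0.70, -1.90 and -4.63 in the same order of arrays. Its second probe gave a difference of 2.11 beside the 2.22 of the first.

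Irf7, the transcription factor that amplifies interferon production, was 4.50-fold higher: its levels were 1.20 and 3.37 in the overexpression and knockdown controls, 4.13 with overexpression, 0.73 with knockdown and -0.62 in normal cells. Some of the oligoadenylate synthetases, which detect double-stranded RNA, gave the same picture. Oas1a read -3.88, -1.62, -1.88, -4.25 and -4.28 from the overexpression control to normal cells, a 4.79-fold difference between the controls. Oasl2 read -2.56, -0.11, 0.43, -2.26 and -2.91 and differed 5.45-fold. The family is built of close copies, so the members cannot be taken as independent probes. For Oas1i the value of the overexpression control was below background, and it was at least 6.58-fold higher in the knockdown control. Other members of the family did not pass 2.5-fold. On the log2 scale Oas3 differed by 0.38, Oas2 by at least 0.61, Oasl by at least 1.06 and Oas1b by -0.65.

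Bst2, which tethers budding virus to the cell surface, read -0.54, 1.39, 0.40, -0.77 and -1.15 and was 3.81-fold higher. The other members past the threshold were Ifit3 and Lgals9 at 3.60-fold each, the RNA helicase Dhx58 at 2.67-fold and Ifi44l at 2.60-fold. Members just under it were Ifih1, the sensor MDA5, at 2.49-fold and the chemokine Cxcl10 at 2.12-fold. Other parts of the pathway differed less. Irf9 was 1.44-fold higher, Stat2 differed by -0.26 on the log2 scale, and the 5 members on the lower side ended with Sp100 at -0.72 and Oas1b at -0.65.

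The upstream sensing list gave another value. Of its 12 measured members, 8 were below 0, and the median was -0.31. Past the threshold 1 was higher (8.33% against 5.27% of all genes) and none was lower. Trex1, the exonuclease that clears cytosolic DNA, was 2.82-fold higher, and the receptor subunit Ifnar1 differed by 1.20. Tlr3, which senses double-stranded RNA, differed by -1.27, the adaptor Mavs by -0.85 and Irf3 by -0.76. In the chemokine and NF-kB list 2 of 34 members were higher (5.88%) and 1 was lower (2.94%), shares near the 5.27% and 3.48% of all genes, and the median was -0.06. Its Nfkb2 was 3.28-fold higher, Ptgs2 at least 3.90-fold higher and the chemokine Cxcl2 3.46-fold lower.

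Peptide presentation by MHC class I, which interferon also induces, was higher in the knockdown control as well. Of 17 measured genes, 15 were above 0 and 4 higher past 2.5-fold, 23.5% against 5.27% of all genes, with a median of 0.65; the count was between 2 and 6 over the alternatives. Tap1, a subunit of the transporter that brings peptides into the endoplasmic reticulum, read -2.96, -0.76, -1.60, -1.52 and -2.73 and was 4.6-fold higher. The class I heavy chain genes RT1-S3, RT1-N3 and RT1-A2 were 3.13-fold, 2.71-fold and 2.55-fold higher, and RT1-A1 differed by 1.05. RT1 genes are near-identical copies whose probes may share targets. The shared light chain B2m differed by 0.05 and the immunoproteasome subunits Psmb8, Psmb9 and Psmb10 by 0.90, 0.03 and -0.13. The difference was therefore not seen in every part of the pathway.

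Over the whole interferon list, the median level of the members was -0.54 in the overexpression control, 0.28 in the knockdown control, 0.50 with overexpression, -0.84 with knockdown and -2.30 in normal cells. Each virus was thus nearer to the control of the other virus than to its own. Of the 9 members past 2.5-fold that were above background on every array, 8 lay nearer the knockdown control on the overexpression array and 8 nearer the overexpression control on the knockdown array. All 9 lay nearer the overexpression control in normal cells. The macrophage and leukocyte markers had no call among 20 measured members and a median of 0.06 between the controls; 19 and 20 of 25 on the array were above background in the overexpression and knockdown controls. Their differences ran from -0.48 for RT1-Bb to 1.28 for Cd14, and Ptprc, found on all leukocytes, read -3.06 and -3.32 in the overexpression and knockdown controls. Their summed scaled signal, in units of the 75th percentile, was 25.6 in the overexpression control, 28.0 in the knockdown control, 19.8 with overexpression, 20.6 with knockdown and 6.53 in normal cells, where the interferon list's median level was lowest too. Summed signals of the skeletal muscle and adipocyte markers were lowest in normal cells as well, at 16.2 and 2.97. On the other arrays they ran from 59.4 to 91.1 and from 13.1 to 20.7. Sums of the hepatocyte, cholangiocyte and progenitor, stellate and endothelial markers were not lowest in normal cells. The part of leukocytes in the interferon values was not tested.

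**Figure D2:**
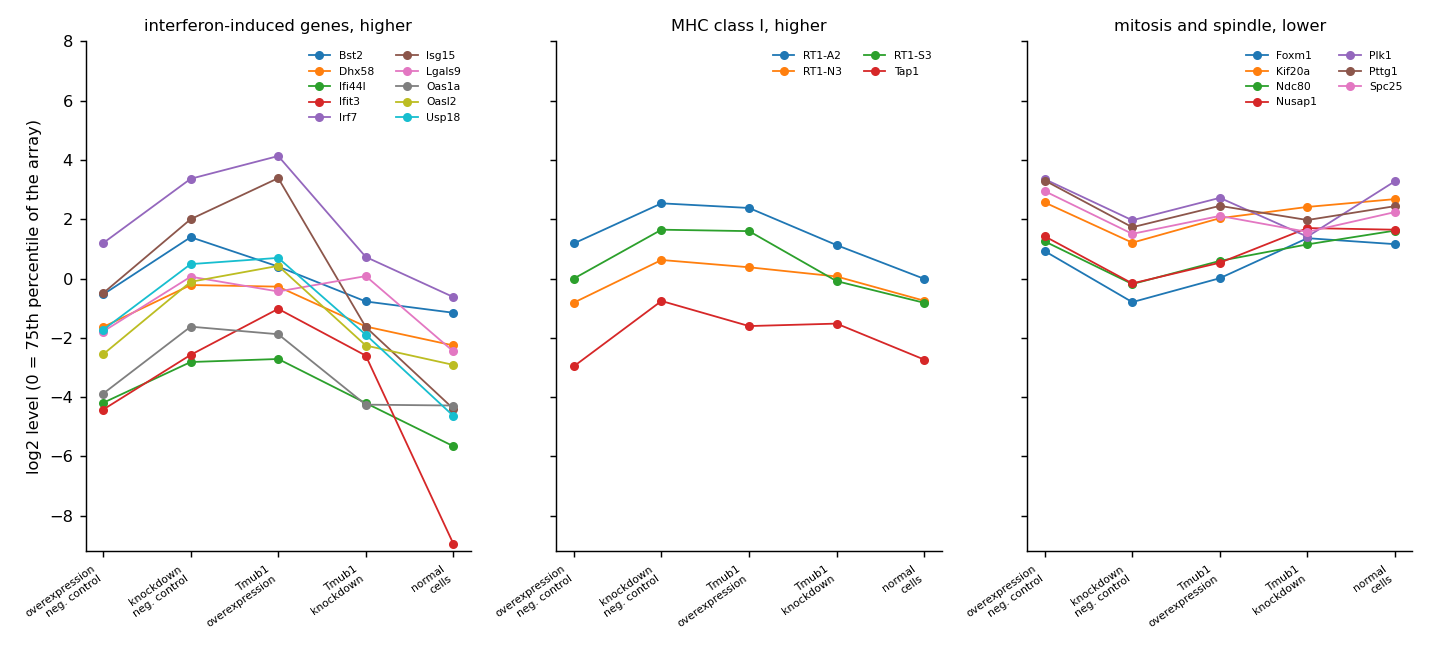
Log2 levels of the called members of 3 lists on the 5 arrays, 1 line per gene, with lines only joining the points of a gene and members known by a bound left out. The 10 interferon and 4 MHC class I genes sit lower in the overexpression control than in the knockdown control, while the 7 mitosis genes sit higher there; Ifit3 in normal cells was not above background.

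The promoters of these genes show what the list shares in sequence. The core of the interferon-stimulated response element was searched as GAAANNGAA on both strands, from 250 bases before to 50 bases after the first listed start of each gene, in RefSeq sequences of build GRCr8. It is short: 9.5% of all 27457 promoters hold it by letters alone. Among the interferon-induced genes, all 8 called members with a promoter in the table held it, as did 20 of 31 members that were not called. Of the called MHC class I genes 3 of 4 held it, against 6 of 12 of the others. Over all genes the share was 7.54% of the 504 higher genes with a promoter and 8.07% of those not called. Below are stretches of 120 bases from 4 of the promoters, written in the direction of the gene, with each match in capitals. They are examples from called genes, picked with the differences known, and their genes are not those with the largest differences. Oas1i, at least 2.72 on the log2 scale, and Oasl2, at 2.45, held matches too. In Oas1a and Bst2 a pair of matches overlaps, beginning 41 and 35 bases before the start in Oas1a and 131 and 125 in Bst2. In Irf7 and Tap1 the match lies on the other strand, 68 and 120 bases before the start.
Oas1a, chr12:41330366-41330485, plus strand: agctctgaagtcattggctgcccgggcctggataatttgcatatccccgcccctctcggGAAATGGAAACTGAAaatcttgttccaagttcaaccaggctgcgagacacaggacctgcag
Irf7, chr1:205800028-205800147, minus strand: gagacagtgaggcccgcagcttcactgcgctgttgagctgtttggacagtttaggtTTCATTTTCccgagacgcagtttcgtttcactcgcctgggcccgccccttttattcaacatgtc
Bst2, chr16:18255032-18255151, minus strand: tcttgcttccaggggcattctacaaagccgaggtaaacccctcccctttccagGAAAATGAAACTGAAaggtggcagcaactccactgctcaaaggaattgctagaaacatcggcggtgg
Tap1, chr20:4668600-4668719, minus strand: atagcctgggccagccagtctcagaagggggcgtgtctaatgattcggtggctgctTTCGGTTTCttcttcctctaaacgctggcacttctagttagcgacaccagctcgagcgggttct

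On the lower side the clearest list was mitosis and spindle. Of 43 measured members, 36 were lower in the knockdown control, 7 of them past 2.5-fold, with a median of -0.67; 16.3% of the list was called lower against 3.48% of all genes. In bulk RNA, fewer cells in mitosis and less of these transcripts per cell cannot be told apart. Plk1, the kinase that drives entry into mitosis, read 3.35 in the overexpression control, 1.97 in the knockdown control, 2.72 with overexpression, 1.41 with knockdown and 3.28 in normal cells. It was 2.61-fold lower, with an interval of -1.79 to -0.99. Pttg1, the securin that holds sister chromatids together until anaphase, read 3.31, 1.73, 2.45, 1.97 and 2.44 and was 2.98-fold lower. In both, the overexpression control was the highest of the 5 arrays.

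The kinetochore genes Spc25 and Ndc80, which belong to one complex, were 2.71-fold lower each. Nusap1, a spindle protein, was 3.01-fold lower and the kinesin Kif20a 2.56-fold lower. Nusap1 read 1.42, -0.16, 0.53, 1.70 and 1.65, so that the knockdown control was the low array and the overexpression array lay between the controls. Foxm1, the transcription factor that activates many of these genes, was 3.30-fold lower by its brighter probe, with levels of 0.92, -0.80, 0.01, 1.36 and 1.16. Its dimmer probe gave 0.43 in the other direction, so its direction is not settled. Cdca8 was at least 3.97-fold higher by a dim probe, the only member past the threshold that way. Members under the threshold included Birc5 at -1.32, Bub1 at -1.23, Ccnb1 at -1.16 and Cdk1 at -0.66.

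Normal cells lay nearer the overexpression control for 6 of the 7 called genes, and the knockdown control was the lowest of the 5 arrays for 6. The median level of the list was 1.24 in the overexpression control, 0.11 in the knockdown control, 0.33 with overexpression, 1.41 with knockdown and 1.5 in normal cells. The count of lower members depends on the scaling, between 3 and 10 over 13 alternatives at 2.5-fold, but the median stayed between -0.86 and -0.53 over all settings. The list also lies among brighter genes, where the median of all genes is below 0. The part of brightness in the list's shift was not tested.

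DNA replication genes did not go the same way. Of 38 measured members, 2 were higher and 2 lower, 5.26% each against 5.27% and 3.48% of all genes, and the median was 0.11. Rrm2, the small subunit of ribonucleotide reductase, was 2.96-fold lower and its second probe gave -0.99, while Rrm1, the large subunit, was 5.74-fold higher. Rrm1 read -4.71, -2.19, -2.84, 1.12 and -1.13, so the overexpression control was its lowest array. Cyclin E1 (Ccne1) was 2.87-fold lower and Dut, which removes dUTP, 2.56-fold higher. The helicase subunits Mcm2, Mcm3, Mcm4, Mcm6 and Mcm7 differed by 0.11, -0.70, -0.08, 0.96 and 0.09, and the other probe of Mcm3 gave 0.52. In the histone list 1 of 12 members was higher, 8.33% against 5.27% of all genes. Slbp, which binds the stem-loop of histone mRNA, was 7.99-fold higher, and its other probe gave 2.38.

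CHR was searched as TTTGAA on both strands of the same promoters, and 18.1% of all promoters hold these letters. Of the called lower genes of the mitosis list with a promoter in the table, 5 of 6 held it, as did 18 of 29 that were not called and Cdca8, the 1 called higher. Over all genes compared the share was 16.2% of those lower, 11.1% of those higher and 13.3% of those not called. In the DNA replication list it was in 1 of 29. An E2F site, searched as TTTCCCGC or TTTGGCGC, was in 9 of 29 promoters of DNA replication genes and in 1 of 36 of the mitosis list, against 1.53% of all. The 3 stretches below belong to called genes, with CHR in capitals: it begins 6 bases after the start in Plk1, 57 bases before it in Spc25 and 9 bases after it in Nusap1.
Plk1, chr1:186147558-186147677, plus strand: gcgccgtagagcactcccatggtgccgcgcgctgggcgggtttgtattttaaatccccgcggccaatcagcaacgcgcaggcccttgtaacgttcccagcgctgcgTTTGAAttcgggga
Spc25, chr3:74396713-74396832, minus strand: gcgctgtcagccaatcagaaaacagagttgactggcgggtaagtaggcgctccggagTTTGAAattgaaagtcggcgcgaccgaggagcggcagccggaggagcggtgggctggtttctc
Nusap1, chr3:127057195-127057314, plus strand: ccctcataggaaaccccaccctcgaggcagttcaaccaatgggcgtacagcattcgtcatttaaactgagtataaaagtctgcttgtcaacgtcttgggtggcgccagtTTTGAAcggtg

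In a list of 30 cell cycle inhibitors and stress-induced genes, 22 were above 0 and 8 below, with a median of 0.69. At 2.5-fold 4 were higher in the knockdown control, 13.3% against 5.27% of all genes, and none was lower. Those below 0 included Gadd45b at -1.24, Fas at -0.97, Cdkn1c at -0.91 and Btg2 at -0.87; the other probes of Fas and Cdkn1c gave 1.55 and 1.03. Phlda3, which restrains AKT at the membrane, read -2.0, 0.58, -0.59, -0.49 and -1.15 and was 6.0-fold higher. The polo-like kinases Plk3 and Plk2 were 3.27-fold and 2.60-fold higher and cyclin G1 (Ccng1) 2.66-fold. The overexpression control was the lowest array for all 4. Cdkn1a, which encodes p21, differed by 0.80 and Mdm2 by -0.13. The count moved between 2 and 8 over the 13 alternatives at 2.5-fold.

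The endoplasmic reticulum list had 5 of 36 members higher, 13.9% against 5.27% of all genes, none lower, and a median of 0.51. Selenok, a selenoprotein of the reticulum membrane, read -0.36 in the overexpression control and 4.29, 4.34, 3.20 and 3.57 on the other 4 arrays, so the 25.1-fold difference rests on 1 low value. Pdia4, a disulfide isomerase, was 7.04-fold higher and the chaperones Canx, Hsp90b1 and Creld2 6.21-fold, 3.77-fold and 3.75-fold. Canx read -4.04, -1.40, -2.86, 1.01 and -1.63. In all 5 genes the overexpression control was the lowest array. Other members differed less: Hspa5, an abundant chaperone of the reticulum, differed by 0.04, Xbp1 by -0.32 and Hyou1 by -0.47. The ER stress element, known by that name and searched on both strands, was in 3 of 5 higher members with a promoter and in 5 of 24 that were not called. It is rare, in 0.0765% of all promoters.

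Genes of the amino acid response that ATF4 controls gave 3 of 39 higher, 7.69% and near the 5.27% of all genes, with a median of 0.43. The amino acid transporter Slc7a5 was 4.83-fold higher, Sesn2, which senses leucine, 4.0-fold and the transporter Slc1a4 3.79-fold. Each read highest with the knockdown virus: Slc7a5, for example, read -2.55, -0.28, -2.25, 1.26 and -2.82. The response element TGATGNAA was in 1 of 3 higher members and in 11 of 33 of the others, against 3.82% of all promoters.

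In the lysosome and autophagy list 6 of 43 genes were higher in the knockdown control past the threshold, against 5.27% of all genes, with none past it the other way and a median of 0.53. Tfeb, the transcription factor that controls this gene network, read -1.92, 0.26, -0.22, -1.63 and -0.88 and was 4.52-fold higher. Of other members, the cholesterol carrier Npc2 was 3.15-fold higher, the membrane protein Lamp1 2.82-fold and Psap, which yields the saposins, 2.75-fold. The autophagy receptor Sqstm1 was 2.58-fold higher by one probe and 0.37 on the log2 scale by the other. The cathepsins Ctsb and Ctsd, on bright probes, differed by -0.34 and -0.39. On the overexpression array all 6 called genes lay nearer the knockdown control. The count was between 3 and 7 over the 13 alternatives.

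The antioxidant list held the largest difference of any listed gene. Txnrd1, thioredoxin reductase, read -3.96 in the overexpression control, 1.65 in the knockdown control, -3.12 with overexpression, 2.33 with knockdown and -0.01 in normal cells, a 48.7-fold difference. Its second probe, below background in the overexpression control, gave at least 2.07 on the log2 scale, so the probes share the direction but not the size. Nqo1, a quinone reductase, read -1.81, 0.56, -1.29, 0.72 and -1.97 and was 5.19-fold higher. Osgin1 was at least 4.39-fold higher, catalase (Cat) 3.55-fold and heme oxygenase (Hmox1) 2.79-fold. In the 4 genes above background everywhere, the overexpression array lay nearer the overexpression control and the knockdown array nearer the knockdown control. Over the list 5 of 31 members were higher at 2.5-fold (16.1% against 5.27% of all genes) and none lower, with a median of 0.42. With normexp 2 were higher. Gsta4, Sod2 and Tkt differed by -1.30, -1.15 and -1.04.

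Genes of glycolysis and hypoxia gave 5 of 38 higher (13.2% against 5.27% of all genes) and 1 lower (2.63% against 3.48%). Their median was -0.15, with 18 above 0 and 20 below. Those below 0 included Pgk1 at -0.71, Bnip3 at -0.74 and Ldha at -0.31. Hif1a, the oxygen-regulated transcription factor, read -1.90, 1.70, -0.35, 1.88 and 0.17 and was 12.1-fold higher. The lactate carrier Slc16a1, hexokinase Hk2, pyruvate kinase Pkm and aldolase Aldoa were 3.87-fold, 3.80-fold, 2.73-fold and 2.54-fold higher, the other Pkm probe giving 0.66. Ankrd37 was 3.12-fold lower. Among heat shock proteins 2 of 25 were higher, 8% against 5.27% of all genes: Hsph1 10.0-fold and the mitochondrial Hspa9 3.66-fold. In lipid synthesis 3 of 34 passed, 8.82% against 5.27% of all genes: the desaturase Scd at 2.84-fold, Elovl5 at 2.76-fold and Insig1 at 2.66-fold, with a median of -0.07.

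Immediate early and growth factor response genes had the largest share of higher members among the 28 pathway lists. Of 42 measured, 11 were higher, which is 26.2% against 5.27% of all genes, and 1 was lower, with a median of 0.36. Phlda1 read -3.97, -0.70, -1.39, -1.35 and -2.55 and was 9.62-fold higher. Egr1, an early transcription factor, was 3.42-fold higher with levels of -4.43, -2.65, -3.41, -0.29 and -2.77. Klf2 and Klf6 were 3.59-fold and 3.32-fold higher, the phosphatase Dusp5 3.25-fold, the urokinase receptor Plaur 3.49-fold with 2.44 on its second probe, Jun 3.08-fold and Fos 2.66-fold. Etv4 was at least 5.15-fold higher. Endothelin (Edn1) went the other way, 4.32-fold lower, with its highest level of 2.33 on the knockdown array. These transcripts are known to be short-lived. In the overexpression control 10 of the 11 read below 0. The count was 5 with normexp background correction and 8 to 13 in the other alternatives at 2.5-fold.

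Targets of YAP and TEAD split. Of 24 measured, 5 were lower (20.8% against 3.48% of all genes) and 3 higher (12.5% against 5.27%), with a median of -0.30; the lower members were 2 with normexp or with quantile normalization over 5 arrays. The matricellular genes Ccn2, Ccn1 and Ccn3 were 3.47-fold, 2.68-fold and 2.61-fold lower, Igfbp3 3.30-fold and Ddah1 2.59-fold, where another Ddah1 probe gave -0.38. Ccn2 read 3.81, 2.02, 2.86, 4.96 and 2.55, so it was higher with the knockdown virus than in either control. The higher members were Amotl2 at least 4.61-fold, Fjx1 at least 5.41-fold and Dlc1 at 3.14-fold.

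The TGF-beta pathway split as well. Of 35 members 6 were higher (17.1% against 5.27% of all genes) and 5 lower (14.3% against 3.48%), with a median of 0.22. Over the alternatives at 2.5-fold these counts were 3 to 7 and 2 to 5. Among receptors and mediators, Acvr1, a type I receptor, read -3.53, 0.41, -2.66, 0.58 and -0.67 and was 15.3-fold higher, and Smad4 was 3.17-fold higher. Among ligands, Bmp2 and Tgfb1 were 2.87-fold and 2.68-fold higher while Bmp4 and Inhba were 3.33-fold and 2.54-fold lower. Inhbb was 2.83-fold lower by one probe and 0.56 in the other direction by another. The BMP antagonist Nog was 6.99-fold higher and the target Id2 3.92-fold. Ltbp2, which holds latent ligand in the matrix, was 4.83-fold lower by its bright probe and -0.04 by its dim one, and Tgfbi was 2.54-fold lower.

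Matrix genes gave 4 higher and 4 lower of 46, with a median of -0.23. That is 8.70% each way, against 5.27% higher and 3.48% lower of all genes. The elastic fibre genes went in opposite directions: Fbn1 was 4.93-fold lower and Fbln1 2.53-fold lower, but Fbln5 was 9.40-fold higher. Vcan was 3.80-fold lower, with -1.43 on its other probe, and Mmp2 2.63-fold lower, with -0.33. Timp3, Col8a1 and Thbs1 were 3.91-fold, 2.83-fold and at least 3.22-fold higher. The abundant collagens Col1a1 and Col3a1 differed by -0.44 and -0.50.

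Contractile genes had 3 of 31 lower (9.68% against 3.48% of all genes) and 1 higher (3.23% against 5.27%). Acta2, smooth muscle actin, read 5.14, 2.66, 4.36, 2.82 and 3.55 and was 5.59-fold lower, with an interval of -2.88 to -2.08. The overexpression control was its highest array and the knockdown control its lowest. Myosin Myh10 was 3.08-fold lower and Myh9 3.96-fold higher. Pdlim7 was 2.52-fold lower by its bright probe, with 1.07 the other way on its dim one.

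Of 27 measured genes of the interleukin 6 and STAT3 list, 3 were higher (11.1% against 5.27% of all genes) and 1 lower (3.7% against 3.48%). The list's median was -0.26, with 10 members above 0 and 17 below. The receptor subunits Il6st and Il6r were 3.88-fold and 3.0-fold higher and the feedback inhibitor Socs1 4.42-fold. Stat3 differed by -0.29 and Socs3 by -0.48. A2m, a protease inhibitor of the acute phase in rat liver, read 3.79, 0.98, 0.46, -1.93 and 3.47 and was 7.0-fold lower, with -2.68 on its second probe. Here the overexpression control and normal cells were the high arrays. Of 15 insulin-like growth factor genes 1 was higher (6.67%) and 2 lower (13.3%), against 5.27% and 3.48% of all genes. Irs1 was 3.79-fold higher, with 1.39 on its second probe, while Dlk1 was 5.49-fold and Igfbp3 3.30-fold lower. Among 32 apoptosis regulators 3 were higher (9.38% against 5.27% of all genes), Tnfrsf12a 3.14-fold, Bak1 3.0-fold and Hrk 2.98-fold.

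Genes of basic cell functions gave few calls. No member of the 72 cytosolic ribosomal proteins, 59 respiratory chain genes or 19 housekeeping reference genes passed 2.5-fold. The ribosomal proteins still had a median of -0.51, with 66 of 72 below 0 and 71 in the brightest of the 5 equal groups of genes. Their median ranged from -0.71 to -0.02 over all settings, nearest to 0 with cyclic loess. Proteasome subunits, with 1 of 34 higher (Psmd3, 2.61-fold), and ubiquitin conjugation genes, with 1 of 40 (Ube2s, 3.96-fold), had medians of -0.04 and -0.13. Their shares were 2.94% and 2.5%, against 5.27% of all genes. Of them 18 and 25 were in the brightest group, as were 48 respiratory chain and 16 housekeeping genes. In that group 21 of 2331 genes were called higher and 80 lower. The part of brightness in the few calls was not tested.

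**Figure D3:**
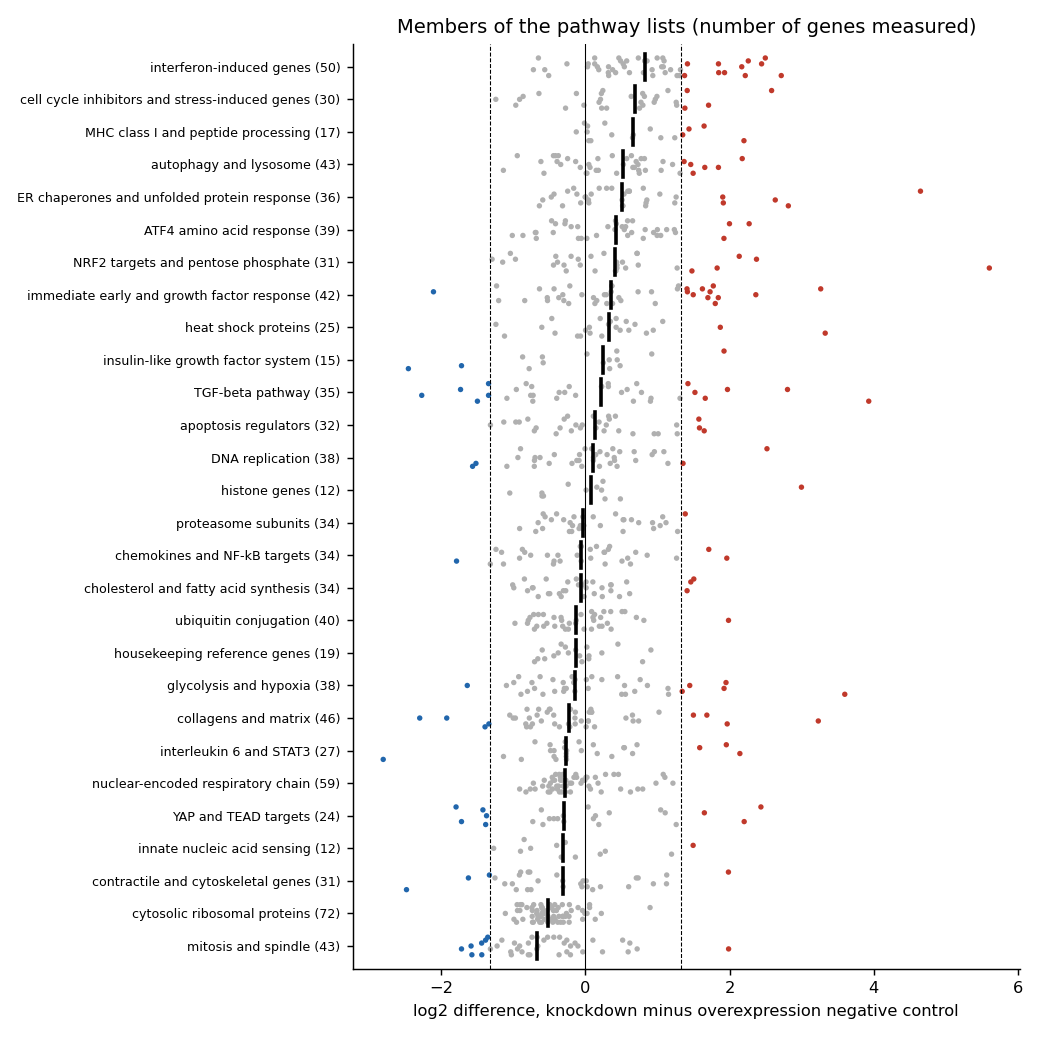
Each point is a measured member of 1 of 28 pathway lists, placed by its log2 difference between the controls, in red or blue past 2.5-fold (dashed lines); black bars are the list medians and the number measured stands beside each name. Interferon-induced genes have the highest median, 0.82, and mitosis and spindle the lowest, -0.67.

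Outside the lists, the genes furthest on the higher side among those above background on all arrays each had 1 probe. Morf4l2, a chromatin protein, read -1.28 in the overexpression control, 3.57 in the knockdown control, -0.15 with overexpression, 2.95 with knockdown and 1.97 in normal cells, a 28.7-fold difference. Axin2, a target and inhibitor of Wnt signalling, was 14.9-fold higher, the acid ceramidase Asah1 13.2-fold and Cpt1a, which carries fatty acids into mitochondria, 11.6-fold. Cofilin (Cfl1) was 10.5-fold higher and the small GTPase Arf6 9.31-fold. For most of these the overexpression array was also low and the knockdown array high.

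On the lower side Hba-a1, an alpha globin, read 4.93, -1.42, 3.19, 3.65 and 4.90 and was 81.4-fold lower, but its other probe gave 1.33 the other way; the globin copies are near-identical. Wnt2b was 10.5-fold lower, the keratin Krt15 10.5-fold, Smtnl2 10.4-fold, Plek2 10.1-fold and the surface sialomucin Podxl 8.43-fold. Podxl read 4.61, 1.53, 3.09, 2.87 and 4.08, and Wnt2b 0.77, -2.63, -0.67, -1.80 and -0.23. In both the knockdown control was the lowest array. Plek2 read 1.89, -1.45, -0.13, 0.29 and 2.55. These genes were taken from outside the lists, so the lists say nothing on a role in common.

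A few probes were near 0 signal on 1 control array alone. Txndc9 read 1.63 in the overexpression control, -8.09 in the knockdown control and 1.60, 1.16 and 1.49 on the other arrays, and was at least 188-fold lower. Mdc1, a DNA damage mediator, read -7.48 in the overexpression control, 0.76 in the knockdown control and 0.50, 1.38 and 1.03 on the others, and was at least 71.7-fold higher. Mllt3 gave a value of the same kind, at least 19-fold higher. Each rests on 1 probe that failed to read above background on 1 array while it was bright on 4, so a fault of that spot and a change in the transcript cannot be told apart.

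The remaining arrays show on which side each control stands. Of the 503 higher genes above background on all 5 arrays, the overexpression control was the lowest array in 415, while the knockdown control was the highest in 166. Of the 351 lower genes the overexpression control was the highest in 242 and the knockdown control the lowest in 172. The genes were chosen by the difference of the controls, which by itself puts a control at the edge more often. The overexpression array lay between the controls for 462 and 315 of these genes. It was nearer its own control for 220 of the 503 higher genes and for 231 of the 351 lower genes. The knockdown array was nearer its own control for 417 and 260. For the higher genes normal cells were nearer the knockdown control in 336, and for the lower genes in 156. For most higher genes it was thus the overexpression control, the dimmest array, that stood at the edge; its part in this was not tested. The interferon genes were an exception: the overexpression control was lowest in 0 of 9.

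**Figure D4:**
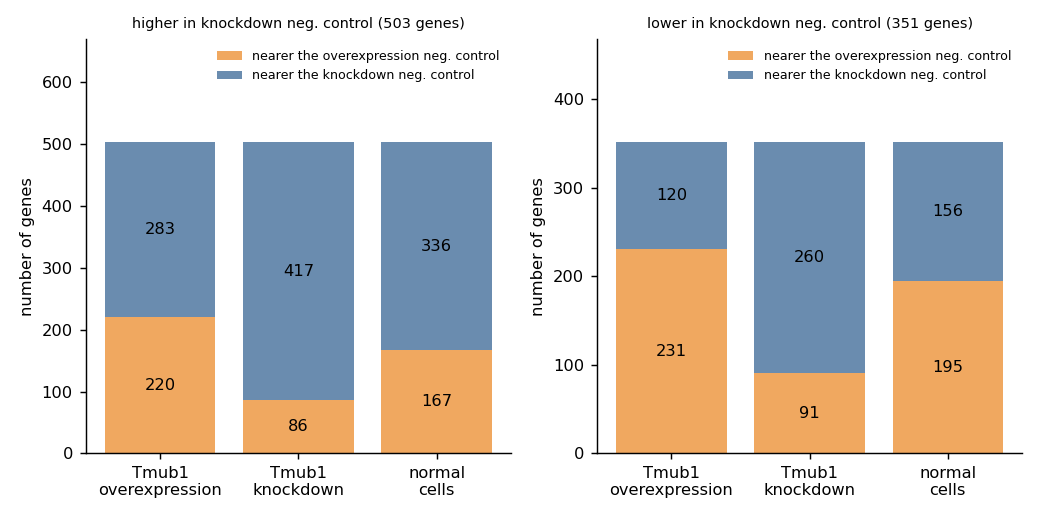
Number of genes past 2.5-fold between the controls, and above background on all 5 arrays, whose level on each of the other 3 arrays lay nearer to one or the other control. The knockdown array was nearer its own control for 417 of 503 higher and 260 of 351 lower genes.

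Apart from replicate spots of a probe, a second probe of the same gene is the one repeat measure within these arrays. The genes called higher had 45 other probes in 44 genes, of which 17 were past 2.5-fold in the same direction, 29 past 1.5-fold and 7 had the opposite sign. Those called lower had 83 in 79 genes, of which 8 were past 2.5-fold, 31 past 1.5-fold and 30 had the opposite sign. Over all 1906 other probes of 1758 genes, r was 0.30 across probes, which are not independent. Each gene is read from its brightest probe, so the other probes are dimmer. The median difference was 0.10 in the dimmest of the 5 groups of genes and -0.31 in the brightest. The part of brightness in the disagreement of probes was not tested. Genes with agreeing probes include Usp18, Slbp, Plaur and A2m, and genes with opposed probes Foxm1, Inhbb, Pdlim7 and Hba-a1.

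**Figure D5:**
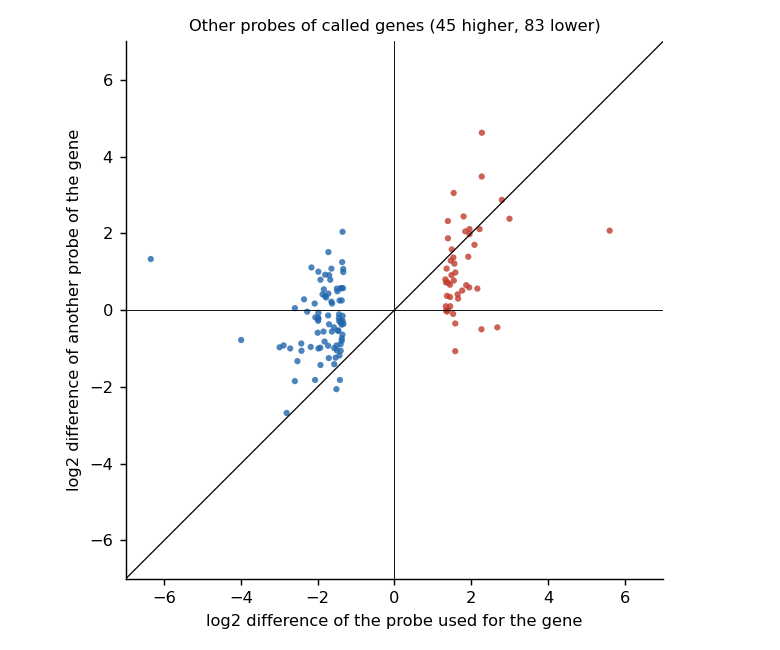
Log2 difference between the controls by the probe used for a called gene (horizontal) and by another probe of that gene (vertical), 45 points for higher genes in red and 83 for lower genes in blue; the diagonal marks equal values. Points of lower genes spread above the diagonal and 30 of them lie above 0.

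The label calls the cells hepatocytes. Of 41 hepatocyte markers on the array, 25 were above background in the overexpression control and 23 in the knockdown control. Among those that define the cell type, Alb was below background in the first and read -4.40 in the second, and Ttr was below background in the second. Hnf4a read -3.79 and -3.97. Other markers were brighter: Tf read 0.49 and 0.52, Ahsg 0.35 and 0.45 and Arg1 0.30 and -1.80. Of 23 stellate and fibroblast markers, 21 and 20 were above background; Col3a1 read 8.01 and 7.5, Col1a1 7.65 and 7.21 and Rgs5 -3.32 and -4.67. The marker lists are small and had few calls, set here beside 3.48% lower and 5.27% higher over all genes. Of the hepatocyte list 2 of 27 were lower (7.41%), Arg1 4.29-fold and Afp at least 3.07-fold. The scanner interval of Afp, -4.47 to 1.23 on the log2 scale, includes 0, so its call is not firm. Of the stellate and fibroblast list 3 of 21 were lower (14.3%), Acta2, S100a4 at 2.62-fold and Rgs5 at 2.56-fold. The summed scaled signal of the stellate and fibroblast list was 616.5 in the overexpression control and 431.1 in the knockdown control, in units of the array's 75th percentile. It ranged from 294.7 to 400.0 on the others. Such a sum weighs the brightest genes most, and the median level of the list ran the other way. That median was 0.08 in the overexpression control, 1.03 in the knockdown control and -0.19 to 0.75 on the others. Of the members 8 differed above 0 and 13 below, with a median difference of -0.26. In the remaining lists Kdr, 4.05-fold lower, was the 1 lower of 11 endothelial genes (9.09%). Dlk1 was the 1 lower of 8 cholangiocyte and progenitor genes (12.5%), and Eno3, 2.93-fold lower, the 1 lower of 23 muscle genes (4.35%). Of 15 adipocyte genes 2 were higher (13.3%), Pparg 3.66-fold and Adrb3 2.67-fold, and Adipoq differed by 0.76. The part of any other cell type in the differences was not tested.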

How the data were processed

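One-colour Agilent arrays of BRL-3A cells were used, 1 per group. The deposited scanner files give each spot an intensity, already background-subtracted and detrended by the scanner software per the file headers, with its error and the other flags of the software. The file headers name Feature Extraction 11.0.1.1 and the submitters' processing notes version 9.1. The authors' table of log2 values, per its equal quartiles on all arrays, is scaled between arrays; the sources used here do not name its method.

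Control spots and spots marked as poor were left out, replicate spots of a probe averaged, log2 taken and each array's 75th percentile subtracted. Probes were named by accession through the RefSeq table of rat; the array was designed on rn4, so positions come from RefSeq promoters (GRCr8) alone. Each gene took the value of its brightest probe by mean and was called at 2.5-fold with the brighter value well above background. With 1 array per group no test is possible, and precision is limited by the number of arrays. The 35 gene lists (28 pathways and 7 sets of cell markers; 1107 of 1260 symbols on the array) and the members were chosen with earlier results of these data known.

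Named genes are Tmub1, up to 6 called members per list and direction with those above background on both arrays first, any member where the text gives a list, up to 12 genes per direction outside the lists and up to 5 known by a bound; genes with placeholder symbols were left out. Members under the threshold were named after their values were seen. Alternatives were quantile normalization, cyclic loess, normexp with an offset of 50 (limma 3.58.1; on the median pixel signal, the one read from these files), other centrings, filters, probe rules and thresholds, and the authors' log2 values. Some genes are not reported here, and counts over lists include them.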

Additional observations from a re-analysis of the deposited data

How the results depend on the processing

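No paired analysis was possible because each group has 1 array and all carry the same replicate number. Without a replicate, neither the calls nor the lists could be set against the spread between cultures, and the scanner's error covers the reading of a spot alone. Alternatives that can change a gene's value gave 1520 cases over the 152 named genes. The difference stayed within its 95% scanner interval in 1410 of them, moved beyond it in 106 and reversed in 4. Some of these cases could not move. The choice of probe leaves a gene with 1 probe unchanged. Likewise, the rule for values below background leaves a gene above it on both control arrays unchanged. The reversals came with the probe of the lowest mean: Foxm1 0.43, Inhbb 0.56, Pdlim7 1.07 and Hba-a1 1.33. List medians moved by 0.5 or more in 1 of 455 cases; smaller moves include the ribosomal proteins, from -0.51 to -0.02 at the nearest to 0. Counts within lists changed by more than 1.5 times in 190 of 1120. The number of genes past the threshold changed most with the rule: normexp gave 347 (197 higher, 150 lower), 329 of them among the 1020; it also starts from another signal column, and the cause was not tested. Median centring gave 624 lower, and no filter on dim probes 1563 in all, 671 lower. A 2-fold threshold gave 1981 (1113 higher, 868 lower) and a 4-fold threshold 272 (167 and 105). The authors' log2 values gave 457 higher and 385 lower, with 76.8% of the calls shared.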
